A study of Mus musculus with 18 samples.

Results

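Phosphoinositide 3-kinase (PI3K) signaling was examined through 9 genes, chosen by symbol, that encode its subunits and its brakes, out of 45706 genes in the deposited tables. They comprise the catalytic subunits *Pik3ca*, *Pik3cd* and *Pik3cg*, the regulatory subunits *Pik3r1* and *Pik3r5*, the inhibitor *Pik3ip1*, the lipid phosphatases *Inpp5d* and *Inpp4b*, and the AKT phosphatase *Phlpp1*. All 9 were found by symbol among the 27903 protein-coding and lncRNA genes, and all 9 passed the filter on low counts, as did 12255 genes in all.

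Class I PI3K is a pair of a catalytic and a regulatory subunit, recruited below the T cell receptor, costimulatory receptors and cytokine receptors, that phosphorylates a membrane lipid to make PIP3. PIP3 brings AKT to the membrane, AKT feeds mTORC1 and keeps FOXO transcription factors out of the nucleus, and lipid phosphatases and inhibitory proteins hold the pathway back. In T cells this balance is known to bear on growth, effector function and the expression of FOXO target genes of quiescent and recirculating cells.

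RNA-seq was performed on 18 cultures of purified CD8+ T cells from OT-I mice, which carry a transgenic receptor specific for an ovalbumin peptide. Repeat peptide stimulated cells, the *in vitro* exhaustion model, received 10 ng/ml peptide daily for the first 5 days in IL-15 and IL-7, whereas single peptide stimulated cells had 1 exposure to it that was washed away. Both were then cultured with the solvent DMSO or with 1 µM ibrutinib, a covalent inhibitor of BTK, from day 5 to day 8. By the methods, repeat peptide cells treated with ibrutinib kept peptide in their medium over these days. The paper's results describe peptide stimulation as lasting over the whole culture unless washed out. They do not set the cultures with DMSO apart. There were 5 libraries of single peptide cells with DMSO (single DMSO), 4 of single peptide cells with ibrutinib (single ibrutinib), 4 of repeat peptide cells with DMSO (repeat DMSO) and 5 of repeat peptide cells with ibrutinib (repeat ibrutinib).

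By their strain entries the mice of all libraries were wild type OT-I, but their genotype entries name experiments, here lettered A to F, and those of B to E contain the words btk KO. The entries were read as names of experiments. *Btk* was at 0 to 1.90 normalized counts in the 9 single peptide libraries, at 8.54 to 20.2 in repeat DMSO and at 0 to 13.3 in repeat ibrutinib, so that its level does not tell the genotype. Experiments A to D gave 1 library to each group, E added a repeat ibrutinib library, and F a single DMSO library. Normalized counts are the authors' expected counts divided by library size and a TMM factor and brought to a common size. The total expected count had a median of 27420966 per library and a range of 23445922 to 51995372, and the lowest value of any member was 589 normalized counts, so that the spread between cultures and not counting error limits the comparisons.

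The markers of CD8+ T cells (*Cd8a*, *Cd8b1*, *Cd3e*, *Cd3g* and *Trac*) summed to 2215 to 3603 TPM, the authors' level per transcript length and depth, in every library. B cell markers summed to at most 0.18 TPM, dendritic cell markers to at most 2.35, myeloid markers to at most 6.23, and the 3 erythroid markers were at 0 throughout. The pair of CD4 T cell markers moved with the groups, at 1.00 to 5.60 TPM in single DMSO, 1.74 to 3.79 in single ibrutinib, 15.3 to 20.8 in repeat DMSO and 5.21 to 15.8 in repeat ibrutinib. This was *Zbtb7b*, since *Cd4* itself did not exceed 0.17 TPM in any library. The NK cell list, which holds *Eomes*, ranged from 20.8 to 38.0 TPM in single DMSO, 10.9 to 15.6 in single ibrutinib, 4.65 to 15.8 in repeat DMSO and 6.80 to 40.7 in repeat ibrutinib. The part of either list in the results was not tested. Of all pairs of libraries of a group, A and E of repeat ibrutinib differed most. Within repeat ibrutinib, every pair with E differed more than any pair without E. Calls that were lost without A or E are named with the results.

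Repeat peptide stimulation changed 4 of the 9 members in cells with DMSO. *Pik3ip1*, which encodes a transmembrane protein that inhibits PI3K, fell 4.82-fold, *Pik3r5*, which encodes the p101 partner of the catalytic subunit p110γ, fell 2.61-fold, *Inpp4b* fell 1.41-fold, and *Pik3cg*, which encodes p110γ, rose 1.64-fold. A gene was called when its adjusted p in edgeR's quasi-likelihood test was under 0.05, its mean normalized count at least 50 and its absolute log2 fold change above 0.2. Of all 12255 genes tested, 47.0% were called in this comparison, so that 4 of 9 members is close to the share among all genes. Ibrutinib in repeat peptide cells raised *Pik3ip1* 2.07-fold and *Pik3r5* 1.65-fold, which are 2 of 9 members against 5.92% of all genes called, and the median log2 fold change was 0.092 over the members and 0.0045 over all genes. In bulk RNA, fewer cells that express a gene and less RNA of it per cell cannot be told apart.

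**Figure D1:**
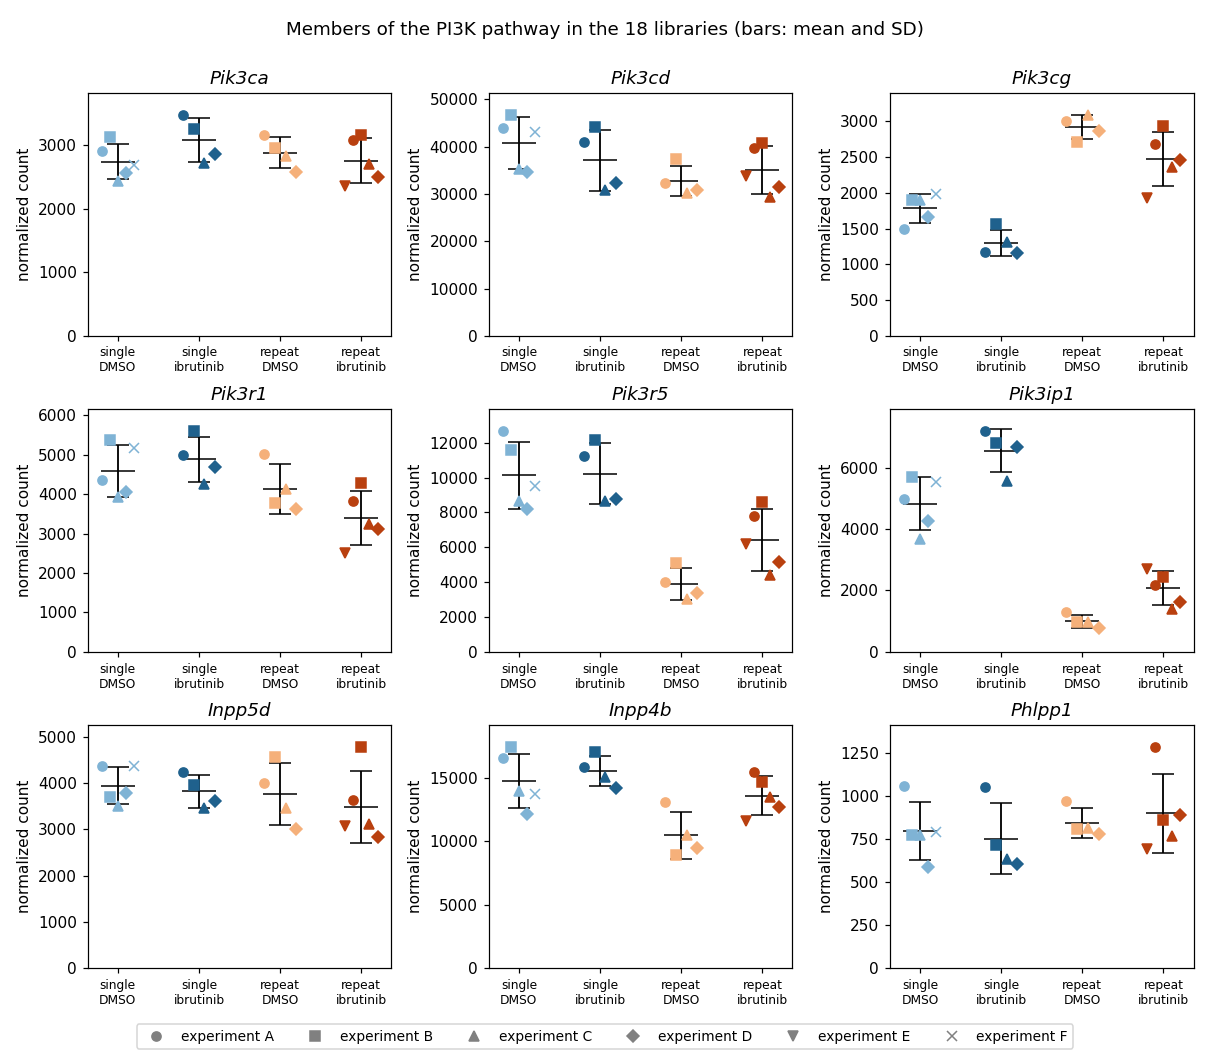
Normalized counts of the 9 members in each of the 18 libraries, by group, with a marker shape for each experiment and bars for the group's mean and SD (n = 5, 4, 4 and 5). The 4 repeat DMSO libraries of *Pik3ip1* lie at 766 to 1286, below all 9 single peptide libraries at 3676 to 7182, whereas those of *Pik3cg* lie at 2712 to 3088, above single peptide libraries at 1153 to 1977.

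*Pik3ip1*, *Pik3r5* and *Pik3cg* are the members called between repeat and single peptide cells under both DMSO and ibrutinib, and their promoters are shown for that reason. The sequences are those of RefSeq on GRCm38.p6, 5′ to 3′ on the gene's strand, 300 bases around an annotated start. Capitals mark matches on either strand to the letters GTAAACA (FOXO), TGANTCA (AP-1), GGAAAA (NFAT) or CTTTGAT (TCF/LEF). The *Pik3ip1* window is chr11:3330481-3330780 on the plus strand and lies inside the gene as GENCODE draws it, the *Pik3r5* window is chr11:68431875-68432174 on the plus strand, and the *Pik3cg* window is chr12:32208421-32208720 on the minus strand.
Pik3ip1: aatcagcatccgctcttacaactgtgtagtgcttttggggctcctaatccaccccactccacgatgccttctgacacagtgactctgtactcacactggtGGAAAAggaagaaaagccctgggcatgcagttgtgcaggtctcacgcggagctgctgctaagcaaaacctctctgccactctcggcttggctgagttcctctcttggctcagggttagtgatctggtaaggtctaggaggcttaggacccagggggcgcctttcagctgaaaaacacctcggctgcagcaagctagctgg
Pik3r5: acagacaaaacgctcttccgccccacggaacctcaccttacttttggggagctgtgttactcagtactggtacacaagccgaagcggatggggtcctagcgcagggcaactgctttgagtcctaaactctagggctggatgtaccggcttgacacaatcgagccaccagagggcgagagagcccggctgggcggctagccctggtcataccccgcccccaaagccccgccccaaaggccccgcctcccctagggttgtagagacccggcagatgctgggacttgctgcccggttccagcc
Pik3cg: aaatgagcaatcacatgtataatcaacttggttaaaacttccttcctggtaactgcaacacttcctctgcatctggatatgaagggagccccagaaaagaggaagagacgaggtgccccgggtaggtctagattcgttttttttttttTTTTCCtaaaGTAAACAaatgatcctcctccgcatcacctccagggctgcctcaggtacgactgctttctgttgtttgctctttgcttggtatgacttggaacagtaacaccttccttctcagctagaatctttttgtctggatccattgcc
The *Pik3ip1* window holds 1 NFAT match, which starts 150 bases before the annotated start. The *Pik3r5* window holds none of the 4 motifs. The *Pik3cg* window holds a FOXO match 92 bases and an NFAT match 102 bases before its annotated start. That start and both matches lie inside the gene as GENCODE draws it. A second *Pik3cg* window of RefSeq at chr12:32208610-32208909, which overlaps the first, has its annotated start at the GENCODE start of the gene. It holds none of the motifs. Among 32851 promoter windows of the same length, 3.65% hold the FOXO letters, 7.81% the AP-1 letters, 23.4% the NFAT letters and 3.73% the TCF/LEF letters. A match describes the letters alone. No member's window holds the TCF/LEF letters, and the windows of *Pik3r1*, *Inpp5d*, *Inpp4b* and *Phlpp1* hold none of the motifs.

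The catalytic subunits were compared first. *Pik3cd* (ENSMUSG00000039936, chr4:149649168-149702571), which encodes the leukocyte subunit p110δ, was the most abundant of the 9 members per transcript length, with 355 ± 87.4 TPM (SD, n = 5) in single DMSO, 310.4 ± 102.5 in single ibrutinib (n = 4), 320.3 ± 34.5 in repeat DMSO (n = 4) and 322.2 ± 97.1 in repeat ibrutinib (n = 5). It made up 89.7% ± 0.994 of the summed TPM of the 4 class I catalytic subunits in single DMSO, 88.8% ± 1.67 in single ibrutinib, 85.8% ± 1.78 in repeat DMSO and 87.6% ± 1.42 in repeat ibrutinib. The share ranged from 88.2% to 90.9% in single DMSO and from 83.5% to 87.8% in repeat DMSO, which do not overlap.

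In normalized counts, *Pik3cd* had 43985, 46673, 35279, 34552 and 43169 in the single DMSO libraries of experiments A, B, C, D and F. The repeat DMSO libraries of experiments A to D had 32354, 37383, 30240 and 30915. The repeat values were lower in each of experiments A to D, although the 2 groups overlap. The log2 difference of -0.32 ± 0.141 (SE) between repeat and single DMSO was not called (adjusted p = 0.0671). With the experiment as a block, which pairs the cultures of each experiment, it was called at -0.28 (adjusted p = 0.00556). DESeq2's Wald test also called it (-0.30, adjusted p = 0.0479). So did edgeR without the repeat DMSO library of B (0.0492) or the single DMSO library of C (0.0457) or D (0.0409). No other alternative called it. Ibrutinib gave log2 differences of 0.10 ± 0.141 in repeat cells (adjusted p = 0.734) and -0.13 ± 0.141 in single cells (adjusted p = 0.777).

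*Pik3cg* (ENSMUSG00000020573, chr12:32173473-32208659), whose product is activated by G protein-coupled receptors, was the catalytic subunit that rose with repeat stimulation. Its normalized counts were 1490, 1903, 1895, 1659 and 1977 in single DMSO (experiments A, B, C, D and F) and 3007, 2712, 3088 and 2869 in repeat DMSO (A to D). Every repeat DMSO library lay above every single DMSO library. The log2 fold change was 0.71 ± 0.121 (adjusted p = 8.46e-05), with within-experiment differences of 1.01, 0.51, 0.70 and 0.79 in A, B, C and D.

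With ibrutinib, *Pik3cg* had 1173, 1560, 1309 and 1153 normalized counts in the single libraries of A to D. The repeat libraries had 1926 in E and 2690, 2938, 2355 and 2460 in A to D. Repeat and single ibrutinib did not overlap either, and *Pik3cg* was 1.90-fold higher in repeat cells (log2 0.93 ± 0.124, adjusted p = 9.52e-06). Here 4 of 9 members were called, *Pik3cg* higher and *Pik3ip1*, *Pik3r1* and *Pik3r5* lower, against 38.4% of all genes.

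Within single peptide cells, ibrutinib lowered *Pik3cg* 1.37-fold (log2 -0.46 ± 0.122, adjusted p = 0.048), and it was the only one of the 9 members called in this comparison, against 3.04% of all genes. The difference was negative in 4 of 4 experiments (-0.35, -0.29, -0.53 and -0.52 in A to D), and the 2 groups overlap, since the highest ibrutinib library lay above the lowest DMSO library. The call sat at the threshold: it was lost when the single DMSO library of experiment B (adjusted p = 0.0841), C (0.107), D (0.0618) or F (0.0962) or the single ibrutinib library of A (0.173), C (0.0916) or D (0.18) was left out, with log2 differences of -0.41 to -0.48 in those fits. In repeat cells the ibrutinib difference was -0.24 ± 0.121 (adjusted p = 0.258), and the difference between the ibrutinib effects, 0.22 ± 0.172, was not called (adjusted p = 0.732).

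As a share of the class I catalytic TPM, *Pik3cg* made up 3.19% ± 0.513 in single DMSO, 2.47% ± 0.308 in single ibrutinib, 6.07% ± 0.794 in repeat DMSO and 4.98% ± 0.642 in repeat ibrutinib. The lowest repeat library had 4.06% and the highest single library 3.72%. *Pik3cb*, the other class I catalytic gene and no member, held 0.295% to 0.444% as group means.

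*Pik3ca* (ENSMUSG00000027665, chr3:32397671-32468486), which encodes the broadly expressed p110α, differed little between groups. Its normalized counts ranged from 2433 to 3128 in single DMSO (median 2680), 2714 to 3470 in single ibrutinib (median 3053), 2572 to 3156 in repeat DMSO (median 2895) and 2352 to 3151 in repeat ibrutinib (median 2698). All 4 ranges overlap, and the log2 differences, from -0.16 for repeat against single ibrutinib to 0.17 for single ibrutinib against single DMSO (SE 0.108 each), were not called.

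Of the 2 regulatory subunits, *Pik3r5* differed most between groups. *Pik3r5* (ENSMUSG00000020901, chr11:68432121-68497849), which links p110γ to G protein βγ subunits, had 12657, 11566, 8664, 8224 and 9512 normalized counts in single DMSO (A, B, C, D and F). In repeat DMSO it had 4034, 5099, 3023 and 3373 (A to D). The groups are well separated, and *Pik3r5* was 2.61-fold lower in repeat DMSO (log2 -1.38 ± 0.203, adjusted p = 1.92e-05), while *Pik3cg* was higher in the same 4 experiments.

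In repeat ibrutinib, *Pik3r5* had 6167 normalized counts in E and 7783, 8605, 4385 and 5184 in A to D. The single ibrutinib libraries of A to D had 11263, 12129, 8677 and 8780. The repeat libraries with ibrutinib thus lay below every single library with ibrutinib (log2 -0.67 ± 0.195, adjusted p = 0.00987), and only that of experiment C lay within the repeat DMSO range.

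Against repeat DMSO, ibrutinib raised *Pik3r5* 1.65-fold (log2 0.73 ± 0.199, adjusted p = 0.0348), with 0.95, 0.75, 0.54 and 0.62 within A to D. The call was lost, at log2 differences of 0.60 to 0.75, without the repeat DMSO library of A (adjusted p = 0.0641), C (0.131) or D (0.121) and without the repeat ibrutinib library of E (0.0535), A (0.089) or B (0.0952). With the experiment as a block the value was 0.72 ± 0.0911 (adjusted p = 9.1e-05), and 3 of 9 members were called higher, against 13.8% of all genes. In single cells the ibrutinib difference of *Pik3r5* was 0.01 ± 0.196 (adjusted p = 0.993).

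The difference between the ibrutinib effects in repeat and single cells was not called for any of the 9 members by edgeR, nor by DESeq2's Wald test, against 1.26% of all genes by edgeR. *Pik3r5* (0.71 ± 0.279, unadjusted p = 0.0193, adjusted p = 0.285) and *Pik3ip1* (0.61 ± 0.261, unadjusted p = 0.0316, adjusted p = 0.365) were the 2 members with an unadjusted p under 0.05. With the experiment as a block, *Pik3r5* alone was called (0.72 ± 0.128, adjusted p = 0.00324), 1 of 9 members against 5.54% of all genes.

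*Pik3r1* (ENSMUSG00000041417, chr13:101680563-101768217) encodes p85α, which stabilizes the class IA catalytic subunits and holds them inactive until receptors are engaged. Its normalized counts were 4979, 5594, 4251 and 4687 in single ibrutinib (A to D) and 2510 in E and 3822, 4290, 3247 and 3123 in A to D in repeat ibrutinib. The highest repeat library, of B, lay just above the lowest single library, of C. *Pik3r1* was 1.44-fold lower in repeat than in single ibrutinib (log2 -0.52 ± 0.144, adjusted p = 0.0069) and lower in 4 of 4 experiments. The call was not made with an offset for transcript length (log2 -0.47, adjusted p = 0.0937). In cells with DMSO the log2 difference between repeat and single was -0.15 ± 0.145 (adjusted p = 0.406), higher in 2 and lower in 2 experiments, and ibrutinib gave -0.28 ± 0.144 in repeat cells (adjusted p = 0.265) and 0.09 ± 0.144 in single cells (adjusted p = 0.869).

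**Figure D2:**
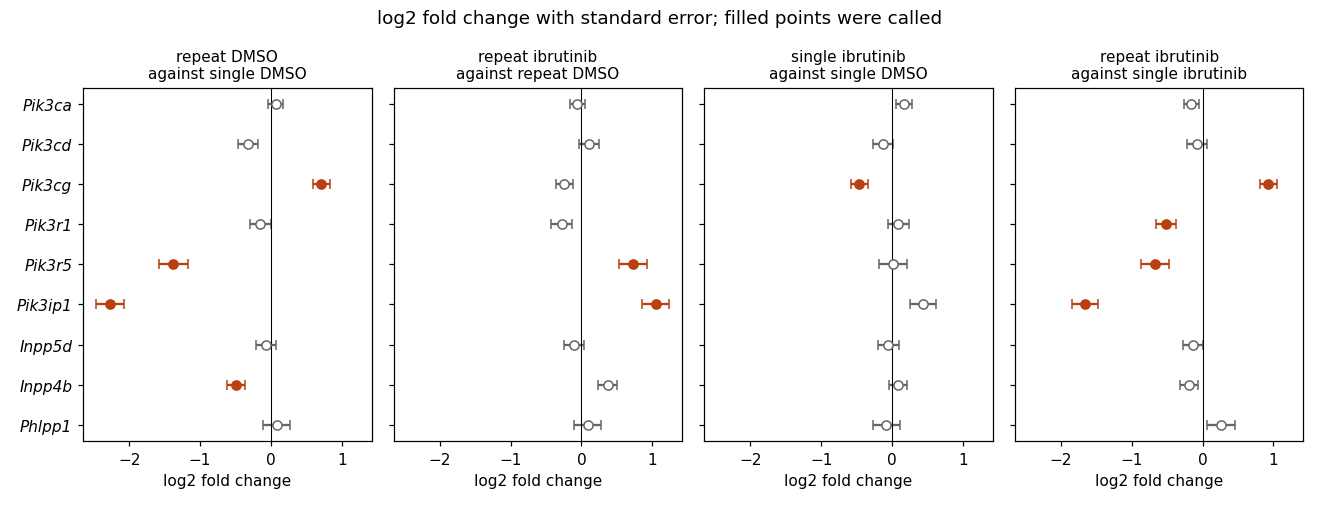
Fitted log2 fold change of each member (point) with its standard error (bar) in the 4 comparisons of 2 groups, with filled points for called members. *Pik3ip1* and *Pik3r5* lie at -2.27 and -1.38 for repeat against single DMSO and at 1.05 and 0.73 for ibrutinib in repeat cells, and *Pik3cg* lies at 0.71 and -0.24.

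Among the inhibitors, *Pik3ip1* (ENSMUSG00000034614, chr11:3330401-3342971) had the largest fold change of the 9 members in 3 of the 4 comparisons of 2 groups, all but single ibrutinib against single DMSO. The single DMSO libraries had 4983, 5692, 3676, 4275 and 5516 normalized counts (A, B, C, D and F). The repeat DMSO libraries had 1286, 968, 984 and 766 (A to D). The groups did not overlap, and *Pik3ip1* was 4.82-fold lower in repeat DMSO (log2 -2.27 ± 0.197, adjusted p = 4.47e-08), with -1.95, -2.56, -1.90 and -2.48 within A to D.

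With ibrutinib, *Pik3ip1* had 2700 normalized counts in the repeat library of E and 2190, 2446, 1387 and 1616 in those of A to D. Each of the 5 lay above all 4 repeat DMSO libraries. The rise of 2.07-fold (log2 1.05 ± 0.189, adjusted p = 0.00232) was seen in 4 of 4 experiments, at 0.77, 1.34, 0.50 and 1.08. Without the library of experiment E, which had the highest value of the group, it was 0.93 (adjusted p = 0.00651).

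The single ibrutinib libraries had 7182, 6783, 5560 and 6658 normalized counts of *Pik3ip1* (A to D). They overlapped single DMSO, with a log2 difference of 0.44 ± 0.182 that was not called (adjusted p = 0.271), although it was positive within all 4 experiments (0.53, 0.25, 0.60 and 0.64). With the experiment as a block it was called at 0.51 (adjusted p = 0.0104), so that 2 of 9 members were called there, *Pik3ip1* higher and *Pik3cg* lower, against 9.09% of all genes. Repeat ibrutinib stayed 3.17-fold below single ibrutinib (log2 -1.66 ± 0.184, adjusted p = 1.32e-06).

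**Figure D3:**
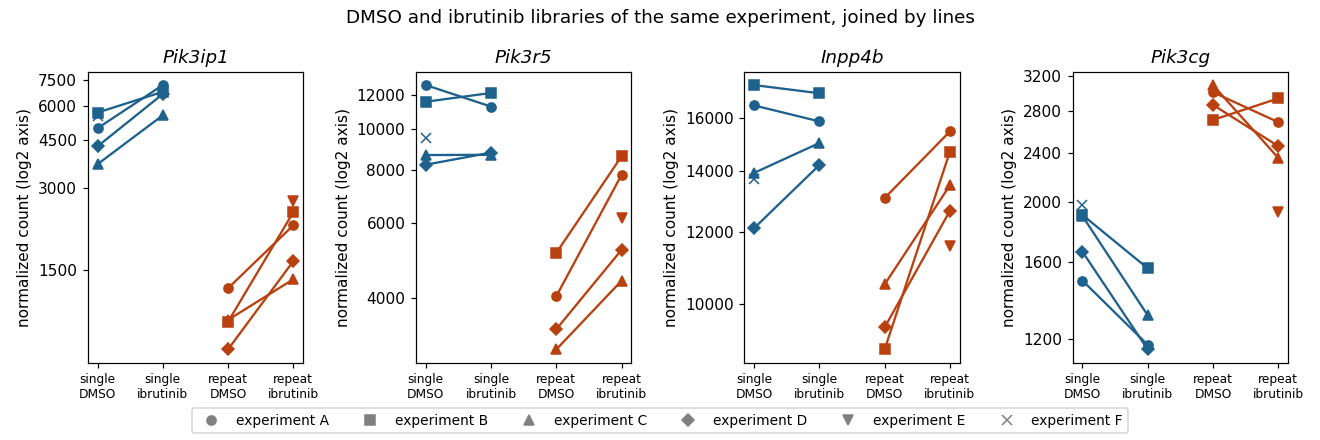
Normalized counts of *Pik3ip1*, *Pik3r5*, *Inpp4b* and *Pik3cg* on a log2 axis, with lines joining the DMSO and ibrutinib libraries of the same experiment, in blue for single and in red for repeat peptide cells. In repeat cells the lines of *Pik3ip1*, *Pik3r5* and *Inpp4b* rise in 4 of 4 experiments, and in single cells those of *Pik3cg* fall in 4 of 4.

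*Phlpp1* (ENSMUSG00000044340, chr1:106171752-106394250), whose product dephosphorylates AKT, was the least abundant member. Its normalized counts ranged from 589 to 1059 in single DMSO (median 772), 607 to 1051 in single ibrutinib (median 675), 780 to 972 in repeat DMSO (median 811) and 693 to 1282 in repeat ibrutinib (median 860). The highest library of every group was that of experiment A, and all groups overlap. No comparison was called, with 0.26 ± 0.192 for repeat against single ibrutinib (adjusted p = 0.292). With the experiment as a block this difference was called at 0.35 (adjusted p = 0.00975), so that 5 of 9 members were called in that comparison, against 48.6% of all genes.

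The lipid phosphatases act in sequence on the product of PI3K: SHIP1, encoded by *Inpp5d*, converts PIP3 to a lipid that the phosphatase encoded by *Inpp4b* then dephosphorylates. *Inpp4b* (ENSMUSG00000037940, chr8:81342556-82127914) had 16531, 17404, 13942, 12125 and 13744 normalized counts in single DMSO (A, B, C, D and F). The repeat DMSO libraries of A to D had 13082, 8923, 10517 and 9433, and only that of A reached into the single DMSO range. The log2 fold change of -0.49 ± 0.131 (adjusted p = 0.00395) held in 4 of 4 experiments, at -0.34, -0.96, -0.41 and -0.36. With the block 5 of 9 members were called in this comparison, against 53.6% of all genes.

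Repeat ibrutinib had 11588 normalized counts of *Inpp4b* in E and 15478, 14705, 13510 and 12663 in A to D. The ibrutinib library lay above the DMSO library in each of A to D (0.24, 0.72, 0.36 and 0.42), and the groups overlap through the DMSO library of A. The difference of 0.37 ± 0.13 was not called (adjusted p = 0.096) but was called with the experiment as a block, at 0.43 ± 0.0972 (adjusted p = 0.00747), with an offset for transcript length (0.50, adjusted p = 0.0259) and without the repeat DMSO library of A (0.50, adjusted p = 0.0331). In single cells the ibrutinib difference was 0.08 ± 0.129 (adjusted p = 0.883).

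*Inpp5d* (ENSMUSG00000026288, chr1:87620312-87720507) was not called in any comparison. Its normalized counts ranged from 3519 to 4370 in single DMSO (median 3789), 3464 to 4249 in single ibrutinib (median 3796), 3019 to 4564 in repeat DMSO (median 3734) and 2845 to 4778 in repeat ibrutinib (median 3121). The log2 differences lay between -0.13 and -0.05, each with a standard error of 0.142.

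Per transcript length, the order of the members differed between groups. In single DMSO, *Pik3cd* (355 TPM) and *Inpp4b* (290 TPM) led and overlapped, followed by *Pik3ip1* and *Pik3r5* (72.2 to 125.5 and 68.5 to 142.5 TPM), then *Inpp5d*, *Pik3r1* and *Pik3ca* (42.7, 38.5 and 27.1 TPM) with overlapping neighbours, then *Pik3cg* (12.3 ± 1.92 TPM) and *Phlpp1* (5.19 ± 1.42 TPM). In repeat DMSO, *Pik3cd* (289 to 357 TPM) lay clear of *Inpp4b* (167 to 199 TPM). Next came *Pik3r1*, *Pik3r5* and *Inpp5d* (44.8, 42.5 and 38.4 TPM), which overlap, and *Pik3ca* (28.4 TPM), which overlaps *Pik3ip1* (23.1 ± 4.36 TPM). *Pik3ip1* (17.6 to 27.9 TPM) thus stood next to *Pik3cg* (22.6 ± 2.91 TPM, 19.3 to 25.9) and overlapped it, and *Phlpp1* was last at 5.91 ± 1.09 TPM. In single ibrutinib the order was that of single DMSO, with *Pik3ip1* at 122 ± 26.0 TPM and *Pik3cg* at 8.46 ± 2.33 TPM, whose range met that of *Phlpp1*. In repeat ibrutinib, *Pik3r5* (67.6 ± 28.2 TPM) and *Pik3ip1* (42.3 ± 13.4 TPM) followed *Inpp4b*, and all neighbours from *Pik3r5* to *Pik3cg* overlapped.

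The mean transcript length that RSEM assigned to each gene, which reflects the annotated isoforms its reads were given to, was compared for the 9 members in the 4 comparisons of 2 groups by a two-sided exact permutation test. Of 36 tests, 1 had an unadjusted p under 0.05, *Inpp4b* in repeat against single ibrutinib (2447 against 2265 bases, exact permutation p = 0.00794, which is the smallest that 4 against 5 libraries allow). After Benjamini-Hochberg adjustment the smallest p was 0.286, which is what a single smallest p comes to over 36 tests, so that the design could hardly call a member. The mean transcript length of *Pik3ip1* was 2097 ± 162.7 bases in single DMSO and 2137 ± 204.2 in repeat DMSO.

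As a description over the 18 libraries, the genes whose log2 CPM most resembled each changed member were taken from 11578 protein-coding genes. For *Pik3ip1* they were *Nr1d2* (Pearson r = 0.994), *Mturn* (0.993) and *Gm14085* (0.992), and for *Pik3r5* *Arhgap45* (0.981), *Sh2d3c* (0.981) and *Arhgef18* (0.976). *Pik3cg* was most like *Tnk2* (0.972), the IL-12 receptor chain gene *Il12rb2* (0.965) and *Ppp1r16b* (0.96). *Inpp4b* was most like *Setd7* (0.928), *Maml3* (0.923) and *Ncoa3* (0.914), and *Pik3r1* like *Zcchc2* (0.943), *Nmt2* (0.929) and *Rprd2* (0.914). The 18 points share their 4 groups and 6 experiments, so that these values describe a common pattern across groups.

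The wider pathway was described with 68 genes in 10 lists by role, which include the 9 members, all of them tested. Between repeat and single DMSO, 14 were called higher and 23 lower (47.0% of all genes were called), with a median log2 difference of -0.16 over the 68 genes and -0.0022 over all genes. The 5 regulatory subunit genes split, with *Pik3r5* lower and *Pik3r2*, which encodes p85β, 5.45-fold higher (108.2 ± 55.7 normalized counts in single DMSO and 589.6 ± 137.9 in repeat DMSO, adjusted p = 1.36e-05). *Pik3r6* and *Pik3r3* were not called because their mean normalized counts, 21.0 and 38.7, were under the threshold of 50. *Pik3r6* was 10.0-fold higher in repeat DMSO (4.89 ± 3.28 to 49.5 ± 17.1 normalized counts, adjusted p = 0.00143). *Pik3r3* was 2.29-fold lower (adjusted p = 0.0364). Of 8 adaptors, 2 rose and 2 fell, led by *Gab2* (log2 2.82 ± 0.40) and *Gab3* (log2 -2.28 ± 0.243), which encode scaffold proteins that recruit p85. Of 8 lipid phosphatases, 2 rose and 3 fell, with the SHIP2 gene *Inppl1* 3.71-fold higher (adjusted p = 5.3e-06) and *Inpp4b* the lowest. Of 8 inhibitors and AKT phosphatases, 2 rose and 3 fell, with the pseudokinase gene *Trib1* highest (log2 2.16 ± 0.421) and *Pik3ip1* lowest.

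Of the 4 class II and III PI3K genes, *Pik3c2b* rose 2.08-fold (a call lost without the repeat DMSO library of C, adjusted p = 0.126, and with the offset for transcript length, 0.171) and 2 fell, *Pik3c2a* the most (1.80-fold), between single and repeat DMSO. Of the 7 genes of AKT and its kinases none rose and 2 fell, led by the mTORC2 subunit gene *Rictor* (log2 -0.79 ± 0.265, adjusted p = 0.017, and 0.0635 without the repeat DMSO library of D). Among 12 genes of mTORC1 and its brakes, 4 rose and 3 fell, with the related sestrin genes at both ends, *Sesn2* 2.18-fold higher and *Sesn1* 2.17-fold lower. Of 3 FOXO factor genes, 2 fell, *Foxo1* by 2.53-fold (6643 ± 531.5 to 2625 ± 337.9 normalized counts, adjusted p = 3.01e-07). Of 10 FOXO target genes, 5 fell and 1, *Ccng2*, rose 1.53-fold, and *S1pr1*, which encodes the receptor for egress from lymphoid tissue, had the largest fall at 14.2-fold (10934 ± 796 to 768 ± 332.6, adjusted p = 1.82e-09).

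Under ibrutinib in repeat peptide cells, 13 of the 68 genes were called higher and 2 lower (5.92% of all genes were called), with a median of 0.094 against 0.0045 over all genes. Of the 59 that are no members, 11 were higher and 2 lower. The FOXO target list moved furthest, with 5 of 10 higher, none lower and a median of 0.50. *S1pr1* rose 4.19-fold to 3222 ± 891.1 normalized counts (adjusted p = 4.86e-05) and *Foxo1* 1.39-fold to 3641 ± 798.8 (adjusted p = 0.04). The *Foxo1* call was lost without the repeat DMSO library of C or D or the repeat ibrutinib library of A or B (adjusted p = 0.0913 to 0.143) and with the compared groups alone (0.106). Among the adaptors 3 of 8 rose and none fell, led by *Gab3* at 2.67-fold (244.9 ± 79.3 to 655.4 ± 189.7, adjusted p = 0.00135).

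The 2 genes that fell were *Pik3r2*, by 2.21-fold (adjusted p = 0.0476), and *Sesn2*, by 1.74-fold (adjusted p = 0.00982), while *Sesn1* rose 1.47-fold (adjusted p = 0.0483). The *Pik3r2* call was lost under 11 of 19 alternatives, among them leaving out any library of the compared groups other than the repeat ibrutinib library of C (adjusted p = 0.0503 to 0.144). The *Sesn1* call was lost under 9, among them leaving out the repeat DMSO library of A, C or D or the repeat ibrutinib library of A, B or E (0.0626 to 0.174), and the *Sesn2* call was lost without the repeat DMSO library of D (0.0587). In this comparison, edgeR without a block or offset over all libraries called none of the 4 class I catalytic genes or the 4 class II and III genes. That fit also called none of the 8 lipid phosphatases or the 7 genes of AKT and its kinases. Of these, the lipid phosphatase gene *Inpp4b* was called by edgeR with the experiment as a block (adjusted p = 0.00747) and under the other alternatives given with it above. As repeat DMSO is part of both this comparison and the one before it, values that move in opposite directions in them share those 4 libraries.

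**Figure D4:**
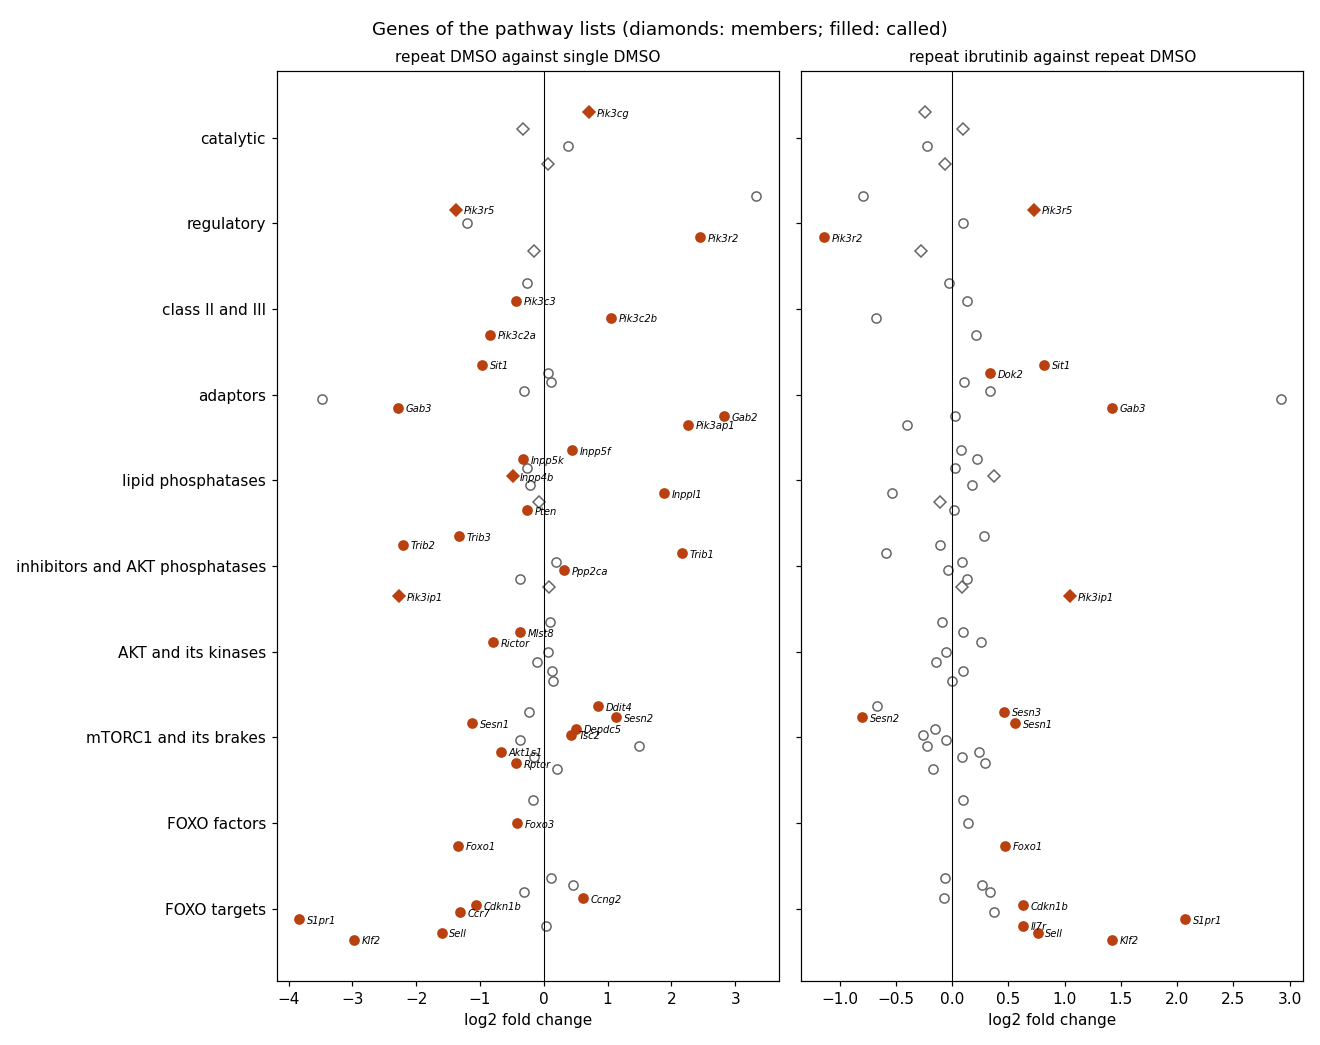
Fitted log2 fold changes of the 68 genes of the PI3K pathway lists, by list, for repeat against single DMSO (left) and ibrutinib in repeat cells (right), with diamonds for members and filled, named points for called genes. The FOXO targets hold 5 called falls on the left and 5 called rises on the right, with *S1pr1* at -3.83 and 2.07.

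In single peptide cells, ibrutinib left most of the pathway uncalled, where 3.04% of all genes were called, 43 higher and 330 lower. Of the 68 genes, 3 were called higher and 1 lower. These were the interleukin-7 receptor gene *Il7r* (1.62-fold, adjusted p = 0.00899), *Sesn1* (1.52-fold, adjusted p = 0.044), the pseudokinase gene *Trib3* (1.77-fold, adjusted p = 0.0489) and the member *Pik3cg*. The *Il7r* call was lost without the single ibrutinib library of A (adjusted p = 0.0633). The *Sesn1* call was lost under 10 of 19 alternatives, among them leaving out the single DMSO library of A, C, D or F or the single ibrutinib library of A, B or D (0.0511 to 0.208). The *Trib3* call was lost under 12, among them leaving out any library of the compared groups other than the single DMSO library of B (0.088 to 0.168).

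Between repeat and single ibrutinib, 9 of the 68 genes were higher and 21 lower (38.4% of all genes were called). *Gab2* (log2 2.58 ± 0.414), *Inppl1* (1.93 ± 0.259) and *Trib1* (1.23 ± 0.425) were again the highest of their lists, and *S1pr1* (-2.20 ± 0.223), *Trib2* (-2.86 ± 0.249) and *Foxo1* (-1.20 ± 0.131) were the lowest of theirs. The *Trib1* call was lost without filtering low counts (adjusted p = 0.0546) and without the repeat ibrutinib library of C (0.0756) or the single ibrutinib library of A (0.0813) or D (0.0771).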

How the data were processed

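Gene expression was measured by RNA-seq of polyadenylated RNA in 18 libraries made with a strand-specific kit. The authors trimmed the reads and mapped them to GRCm38 with RSEM 1.3.1 and STAR, and deposited expected counts, RSEM's estimated read counts that may hold fractions, and TPM for each gene and library. The deposited TPM values are normalized by the authors for transcript length and sequencing depth. RSEM's length and effective length of each gene in bases, also deposited by the authors, served for the isoform test and as an offset. The 9 members had whole expected counts in all libraries.

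Expected counts were rounded to whole numbers. Of 45706 genes, 45143 matched GENCODE M21 by identifier, which gave names and coordinates on GRCm38, and 27903 protein-coding or lncRNA genes (98.5% of counts) were kept. In R 4.3.3 with edgeR 4.0.16, genes passing filterByExpr (12255) were normalized by TMM and fitted over all 4 groups by the robust form of glmQLFit, and contrasts between groups were tested with glmQLFTest and Benjamini-Hochberg adjustment over all 12255 genes. The thresholds were an adjusted p of 0.05, a mean normalized count of 50 and an absolute log2 fold change of 0.2. Log2 CPM used a prior count of 2. The p-values measure the spread between cultures. Counts of any pair of libraries of a group differed by more than sampling noise, with 28.6 to 224.7 for chi-square over its degrees of freedom.

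The experiment, read from the genotype entry of the labels, was checked as a pairing from the deviations of libraries from their group means. All 24 pairs from the same experiment correlated above 0.1 (0.16 to 0.494, median 0.325), and the other 97 pairs had a median of -0.0765. The experiments were therefore taken to pair the libraries. The fit over the 4 groups has no block, since the study's RNA-seq methods name none. Its calls, standard errors and pathway list counts thus leave the pairing out. A blocked fit by experiment is given as an alternative. It called more genes in every comparison, such as 1694 against 726 for ibrutinib in repeat cells.

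The members, pathway lists, markers and rules were chosen with earlier results of these data known. The genes named are the members, the called gene with the largest rise and fall of each pathway list and comparison, the 3 genes most like each called member, *Btk* and the markers. Outside these rules, *Pik3cb*, *Pik3r3* and *Pik3r6* are named as further class I subunit genes. The figure of the pathway lists also names the other called genes. Alternatives were DESeq2 1.42.0 size factors, no filter, no count threshold, a stricter fold change (log2 above 1), effective length as an offset, all gene types, the compared groups alone, experiments A to D alone, the blocked fit, the Wald test of DESeq2 (apeglm 1.24.0) and each library left out in turn. Scripts were tested on simulated counts. Protein sequences were not used here.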

Additional observations from a re-analysis of the deposited data

Results flagged for a closer look

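The *Phlpp1* count of the repeat DMSO library of experiment A, 972 normalized counts, stood apart from the other 3 libraries of its group, which had 780 to 811. It was 1 of 36 groups of a member's values examined in this way, and chance alone marks about 1 group in 20. The ibrutinib effect differed between repeat and single peptide cells, at an adjusted p under 0.05 in edgeR's test of the difference itself, for 4 genes of the pathway lists, none of them a member. The log2 difference (repeat minus single) was 1.63 for *S1pr1* (adjusted p = 0.011), 1.32 for *Gab3* (adjusted p = 0.049), -1.07 for *Sesn2* (adjusted p = 0.0412) and -2.09 for *Pik3r2* (adjusted p = 0.0364). Only the *S1pr1* call held under all 27 alternatives. The *Gab3* call was lost under 18 of them, 14 of which left out a library (all but B of repeat DMSO, C and D of repeat ibrutinib and D of single DMSO, adjusted p = 0.0503 to 0.11). The *Sesn2* call was lost under 16, 14 of which left out a library (all but A of repeat DMSO, D of repeat ibrutinib and B and C of single DMSO, 0.0504 to 0.112). The *Pik3r2* call was lost under 10, 9 of which left out a library (C or D of repeat DMSO, A, B or E of repeat ibrutinib, C of single DMSO, and A, C or D of single ibrutinib, 0.0506 to 0.0898).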

How the results depend on the processing

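The calls of *Pik3ip1* in its 3 called comparisons and of *Pik3r5* between repeat and single DMSO held under all 19 alternatives. With an absolute log2 fold change above 1, the members called numbered 2 for repeat against single DMSO, 1 for repeat against single ibrutinib, 1 for ibrutinib in repeat cells and 0 in single cells, and the genes called 1994, 1461, 237 and 202. For ibrutinib in repeat cells, 1 member was called with experiments A to D alone or the compared groups alone. For ibrutinib in single cells, 0 members were called with all gene types, no filter or the compared groups alone. The compared groups alone gave 464 genes for ibrutinib in repeat and 181 in single cells. DESeq2's Wald test gave 1151, 602 and, for the difference of the ibrutinib effects, 334 genes.

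With the replicate block (experiments paired), 1694 genes were called for ibrutinib in repeat cells, 1114 in single cells and 679 for the difference of the effects, and 2 members were called for ibrutinib in single cells and 1 for the difference. The block turned *Pik3r5* with ibrutinib in single cells to -0.0027 and changed no other call of a member beyond those given with the results.

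With 1 library left out at a time, the genes called ranged from 354 to 874 for ibrutinib in repeat cells (354 without the repeat DMSO library of D, 393 without that of C and 478 without the repeat ibrutinib library of A), 131 to 391 in single cells (131 and 152 without the single ibrutinib libraries of A and D, 205 without B, and 198 and 239 without the single DMSO libraries of C and D), 5072 to 5840 for repeat against single DMSO, 3763 to 4924 for repeat against single ibrutinib and 84 to 171 for the difference (84 without the repeat DMSO library of C, 89 without the single ibrutinib library of D). Members called ranged from 1 to 2, 0 to 1, 4 to 5, 4 to 4 and 0 to 0.

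Signs turned only for differences that were not called. The offset for effective length gave 0.08 for the *Inpp5d* difference of effects, -0.08 for *Pik3ca* and 0.05 for *Pik3r1* between repeat and single DMSO, and -0.0023 for *Pik3r5* with ibrutinib in single cells, which was -0.0096 with DESeq2's size factors, -0.009 with experiments A to D alone, -0.0036 in DESeq2's Wald test and -0.08 to 0.11 with 1 library left out. The leave-one-out ranges that crossed 0 also included *Inpp5d* (-0.18 to 0.07 for the difference of effects, -0.17 to 0.02 for repeat against single DMSO and -0.24 to 0.0076 for ibrutinib in repeat cells), *Phlpp1* (-0.0081 to 0.21 for repeat against single DMSO, -0.06 to 0.17 for ibrutinib in repeat and -0.30 to 0.04 in single cells) and *Pik3cd* (-0.14 to 0.01 for repeat against single ibrutinib). The cause was not tested.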
